A study of Mus musculus with 81 samples.

Results

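The comparison described here sets 3 untrained mice whose libraries are labelled mH2A1 shRNA against 3 untrained mice given a scrambled shRNA, and covers every gene in the count table of the training experiment. These 6 libraries, 1 per mouse, are 6 of the 81 samples of the series, and all 20801 genes of the table belong to the comparison. All 6 mice were male C57BL/6J animals of about 9 to 12 weeks that stayed in the home cage. Each had received an adeno-associated virus of serotype DJ into dorsal CA1 of the hippocampus on both sides, with the hairpin driven by the U6 promoter and green fluorescent protein by the CMV promoter, and the study allowed 2 weeks for recovery. The promoters are not restricted to a cell type, every mouse carried a virus, and no untreated mouse was sequenced in this table. The study assigned cage mates to the same behavioural group and does not state whether they shared a virus. Cages are not given for these 6 mice, so a cage effect cannot be separated from the group difference. The labels name area CA1 as the source and describe dissection of frozen hippocampi, and RNA was sequenced after depletion of ribosomal RNA.

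MacroH2A1 (mH2A1) is a variant of the core histone H2A that carries a large globular domain at its end, is encoded by H2afy (listed under its newer symbol Macroh2a1) and is known mainly from silent chromatin such as the inactive X chromosome and inactive promoters, although it also occurs at some active genes. MacroH2A2, encoded by H2afy2 (Macroh2a2), is its close relative. The hippocampal CA1 field consists mostly of pyramidal neurons that express synaptic, ion channel and activity-regulated genes, among interneurons, astrocytes, oligodendrocytes, microglia and vessels. The question of the comparison is how the home-cage transcriptome differs between the 2 viruses.

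The targeted gene was examined first, and its RNA was not lower in the labelled libraries. Macroh2a1 lies at chr13:56073622-56135626 (mm10), and its level in CPM, the counts as a rate per library total scaled by the trimmed mean of M-values (TMM), was 83.1, 82.2 and 79.3 in scramble replicates 1, 2 and 3. The same level was 87.7, 89.3 and 89.0 in the libraries labelled mH2A1 shRNA. Each of the 3 labelled libraries was thus above each scramble library. The log2 difference was 0.13 (SE 0.05), with an adjusted p of 0.0868 in edgeR's quasi-likelihood test, so Macroh2a1 was not lower in the labelled libraries and its difference did not pass the test. With library totals alone, without scaling factors, the log2 difference of Macroh2a1 was 0.38 and passed, in the same direction (edgeR adjusted p = 0.0012). The reads were counted over the whole transcript from start to end, introns included, and unspliced and spliced RNA are therefore summed. The paper reports that its shRNA against H2afy lowered both the mRNA and the protein in infected hippocampal tissue. It also reports that the mRNA was still lower in mice examined weeks after training. It does not state whether the mice sequenced here were among those checked. The counts here, with introns included, are a different measure from mRNA alone. The protein was not measured in these libraries. For this reason the groups are called by their labels throughout, and every direction given is that of libraries in which Macroh2a1 RNA was not lower.

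Macroh2a2 read 9.84, 9.87 and 10.6 CPM in scramble libraries and 10.0, 12.2 and 8.84 CPM in labelled libraries, with overlapping groups and a log2 difference of 0.04 (SE 0.13, edgeR adjusted p = 0.799). None of the 9 histone variant genes in that list was called. The replacement histone gene H3f3b came closest, at a log2 difference of 0.23 (SE 0.06, edgeR adjusted p = 0.0195) that was under the fold threshold.

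**Figure D1:**
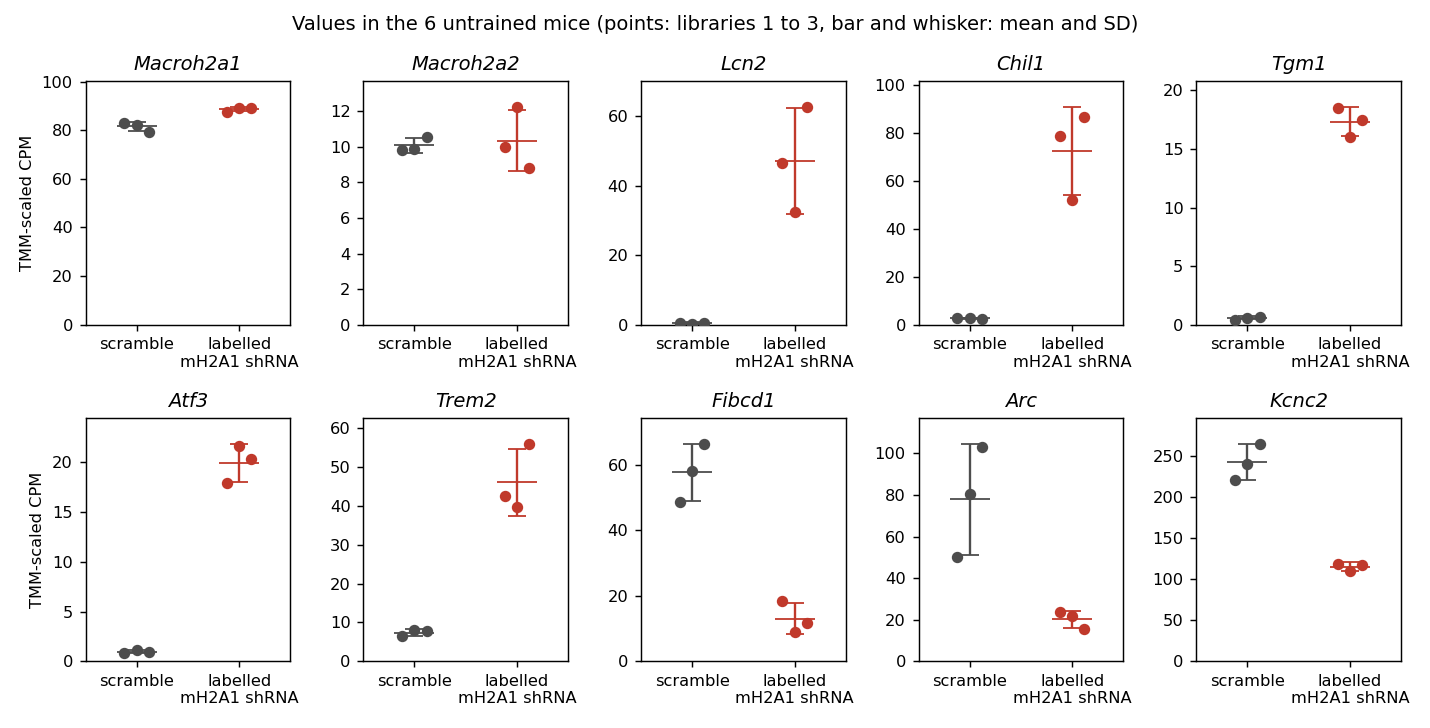
TMM-scaled CPM (vertical axes, each from 0) of 10 genes in the 6 untrained mice, with points for libraries, bars for means and whiskers for SD (n = 3 per group). Macroh2a1 sits between 79.3 and 89.3 in all 6 libraries, while Lcn2, Chil1, Tgm1, Atf3 and Trem2 are higher and Fibcd1, Arc and Kcnc2 lower in every labelled library than in every scramble library. The groups did not overlap for 59.9% of all genes tested.

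The assigned counts ran from 82104506 to 89816149 per library. The first principal component carried 82.7% of the variance and placed the scramble libraries between -59.4 and -54.0 and the labelled libraries at 42.1, 64.4 and 64.8, with labelled replicate 1 nearest to the scramble mice. The TMM factors were 0.889 to 0.937 in scramble libraries and 1.09 to 1.11 in labelled libraries. The 10 most abundant genes took 4.41% to 4.96% of the counts in scramble libraries and 3.17% to 3.37% in labelled libraries.

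Across the transcriptome the difference between the groups was broad. Of 15799 genes that passed the low-count filter, 6905 (43.7%) were called (adjusted p under 0.05 with a fold change of more than 1.2). Of these, 3984 (25.2% of the genes tested) were higher and 2921 (18.5%) lower in the libraries labelled mH2A1 shRNA. The groups did not overlap for 59.9% of all genes tested. The 2 directions differed in size, since thresholds of 0.01 on the adjusted p and 2 on the fold change left 1942 higher genes (12.3%) and 221 lower genes (1.4%). The median log2 fold change of all genes tested was 0.0014 after TMM scaling and 0.26 when library totals alone were used. Without scaling factors, 6455 genes were called higher and 1060 lower, so that 85.9% of the calls were higher, against 57.7% with TMM scaling.

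**Figure D2:**
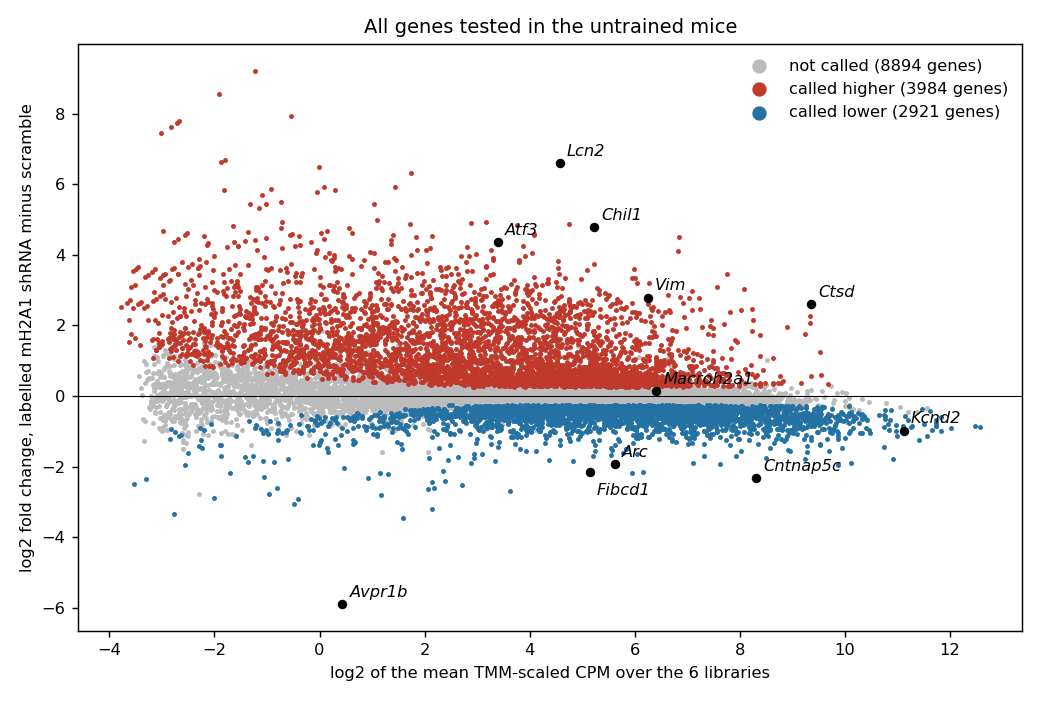
Log2 fold change, labelled mH2A1 shRNA minus scramble (vertical axis), against the log2 mean TMM-scaled CPM (horizontal axis) for the 15799 genes tested, each point a gene. Higher calls (red, 3984 genes) reach larger differences than lower calls (blue, 2921 genes), and Macroh2a1 lies near 0.

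Interferon-stimulated genes formed the list with the largest number of members that were all higher. Interferons bind surface receptors whose signalling leads transcription factors to the interferon-stimulated response element (ISRE) in promoters. All 39 members of the list were tested, all 39 were called higher (25.2% of all genes were), and the median log2 fold change was 2.25, beside 0.0014 for all genes tested. The promoter sequences of list members show the element as letters. Among the 29 members with an entry in the RefSeq promoter table of GRCm38.p6 (250 bases before to 50 bases after the gene start), 19 (65.5%) held GAAA, any 2 bases and GAAA again, on either strand, beside 3.49% of all 27025 promoters in that table and 3.18% of the 12700 promoters of genes tested. The share was 5.67% for genes called higher and 2.1% for genes called lower. The stretches shown reach at most 50 bases to either side of the matches and end no later than the gene start, 5′ to 3′ on the strand of the gene. They come from the 5 list members with the smallest p whose matches all lie upstream, and from Ifit1. Capitals mark the matches, which overlap in some, and TTTC, any 2 bases and TTTC is the same element read on the opposite strand.

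Bst2, chr8:71537537-71537652, minus strand: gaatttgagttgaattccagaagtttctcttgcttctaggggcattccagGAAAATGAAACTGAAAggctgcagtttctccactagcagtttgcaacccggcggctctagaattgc
Gbp3, chr3:142559949-142560043, plus strand: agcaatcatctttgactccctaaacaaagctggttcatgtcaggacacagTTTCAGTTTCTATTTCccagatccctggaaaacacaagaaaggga
Oas1a, chr5:120907526-120907595, minus strand: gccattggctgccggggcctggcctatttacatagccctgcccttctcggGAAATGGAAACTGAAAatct
Stat2, chr10:128270248-128270335, plus strand: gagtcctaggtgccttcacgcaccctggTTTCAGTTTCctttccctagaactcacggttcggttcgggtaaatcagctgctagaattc
Isg15, chr4:156200825-156200946, minus strand: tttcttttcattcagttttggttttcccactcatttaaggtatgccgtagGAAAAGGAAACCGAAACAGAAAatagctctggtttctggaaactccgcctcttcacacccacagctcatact
Ifit1, chr19:34640735-34640863, plus strand: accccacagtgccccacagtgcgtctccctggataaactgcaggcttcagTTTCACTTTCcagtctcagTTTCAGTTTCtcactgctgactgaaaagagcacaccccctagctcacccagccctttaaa

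The Isg15 stretch holds 3 overlapping matches, the first 78 bases before the start, and Ifit1 holds 2 separate matches, the first 104 bases before the start. These matches describe letters in a window and were not measured as bound sites.

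Bst2, a membrane protein that tethers budding virus particles, read 2.41, 3.65 and 2.81 CPM in scramble libraries and 18.3, 18.2 and 18.9 CPM in labelled libraries (log2 fold change 2.65, SE 0.15, edgeR adjusted p = 8.1e-05). Ifitm3, which blocks virus entry, read 7.12, 6.59 and 5.2 CPM against 26.2, 30.6 and 35.9 CPM. For Oasl1, of the 2′-5′ oligoadenylate synthetase family, the levels were 1.08, 1.3 and 0.758 CPM in scramble mice and 8.60, 13.6 and 12.0 CPM in labelled mice. In all 3 genes the groups were well apart. Lgals3bp, a secreted glycoprotein, rose 2.79 on the log2 scale (SE 0.19, edgeR adjusted p = 0.00011). Isg15, a ubiquitin-like modifier, had 12.6, 11.6 and 10.6 CPM in labelled libraries and at most 1.90 CPM in any scramble library.

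Antigen presentation and complement genes were higher with the same completeness. All 16 tested genes of MHC class I presentation were called higher (median log2 fold change 2.25), as were all 8 of MHC class II presentation (median 3.12) and all 15 complement genes (median 2.89). C3, the central complement component, read 11.1, 11.4 and 14.9 CPM in scramble libraries and 161, 206 and 277 CPM in labelled libraries (log2 fold change 4.11, SE 0.23, edgeR adjusted p = 8.1e-05). C1qc, a subunit of the recognition molecule C1q, read 25.7, 32.6 and 34.3 CPM against 212, 249 and 267 CPM. The class I regulator Nlrc5 rose 2.44 (SE 0.19) and the class II regulator Ciita rose 3.33 (SE 0.39) on the log2 scale, both called. The H2-Q6 gene rose 2.42 (SE 0.17), but it belongs to a family of near-identical MHC genes, among which reads may be split. The class II list differed among scramble mice, with a summed level of 133, 168 and 309 CPM in replicates 1 to 3, all below the 1000 to 1724 CPM of the labelled libraries.

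Microglial genes were higher both for resident and for activated cells. Each of the 13 homeostatic microglia markers was called higher (median log2 fold change 1.60), with a summed level of 306 to 362 CPM in scramble libraries and 896 to 1293 CPM in labelled libraries. In bulk tissue a change in the number of cells of a type and a change in RNA per cell cannot be told apart. Of the 24 genes of activated microglia and macrophages, 23 were higher (median 2.92), the exception being the lipase gene Lpl. Trem2, a lipid-sensing receptor of microglia, read 6.46, 8.00 and 7.76 CPM in scramble libraries and 42.5, 39.8 and 55.9 CPM in labelled libraries (log2 fold change 2.64, SE 0.15, edgeR adjusted p = 8.1e-05). The integrin gene Itgax read 2.70, 3.79 and 3.98 CPM against 31.3, 44.5 and 52.8 CPM. Clec7a, a receptor for fungal glucans and a marker of activated microglia, read 1.66, 2.32 and 1.43 CPM against 28.9, 49.9 and 77.6 CPM. Both Itgax and Clec7a were lowest in replicate 1 among the labelled mice, yet still above every scramble mouse.

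Lysosomal genes were higher in the same libraries. Of 42 tested, 38 were called higher and none lower (median log2 fold change 1.32). The protease gene Ctsd read 169, 207 and 182 CPM in scramble libraries and 935, 1012 and 1413 CPM in labelled libraries. Grn, which encodes progranulin, rose 2.44 (SE 0.15) and Npc2, a cholesterol carrier of the lysosome, rose 2.10 (SE 0.12) on the log2 scale. Tfeb, the transcription factor that controls many lysosomal genes, had the smaller log2 difference of 0.90 but the tighter error of 0.05, with 31.9, 31.6 and 31.4 CPM against 58.2, 59.3 and 58.6 CPM. Several of these genes, among them Ctsd and Ctsz, are also in the activated microglia list, so the lists are not independent.

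Genes of blood-borne immune cells differed by type. All 14 T and NK cell genes were higher (median log2 fold change 1.86), at a summed level of 13.1 to 20.0 CPM in scramble libraries and 59.4 to 87.4 CPM in labelled libraries. Cd3e, a chain of the T cell receptor complex, read 1.28, 1.45 and 1.64 CPM against 4.20, 6.04 and 4.83 CPM. Gzmb, the cytotoxic granule protease, read 0.0975, 0.178 and 0.174 CPM against 1.09, 1.61 and 1.5 CPM. Of the 8 B and plasma cell genes only the B cell factor gene Pax5 was called higher (12.5%, beside 25.2% of all genes tested). The list had a median of 0.12 and a summed level of 42.7 to 61.0 CPM in scramble libraries that overlapped the 42.6 to 66.0 CPM of labelled libraries. The call of Pax5 was lost when any of 3 libraries was left out, with log2 fold changes of 0.90 to 1.06 there. In the neutrophil and monocyte list 4 of 10 genes were tested and 3 of them were higher. One of these was Ccr2, the receptor that draws monocytes, at 0.658, 0.865 and 1.45 CPM against 5.73, 8.37 and 8.56 CPM.

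**Figure D3:**
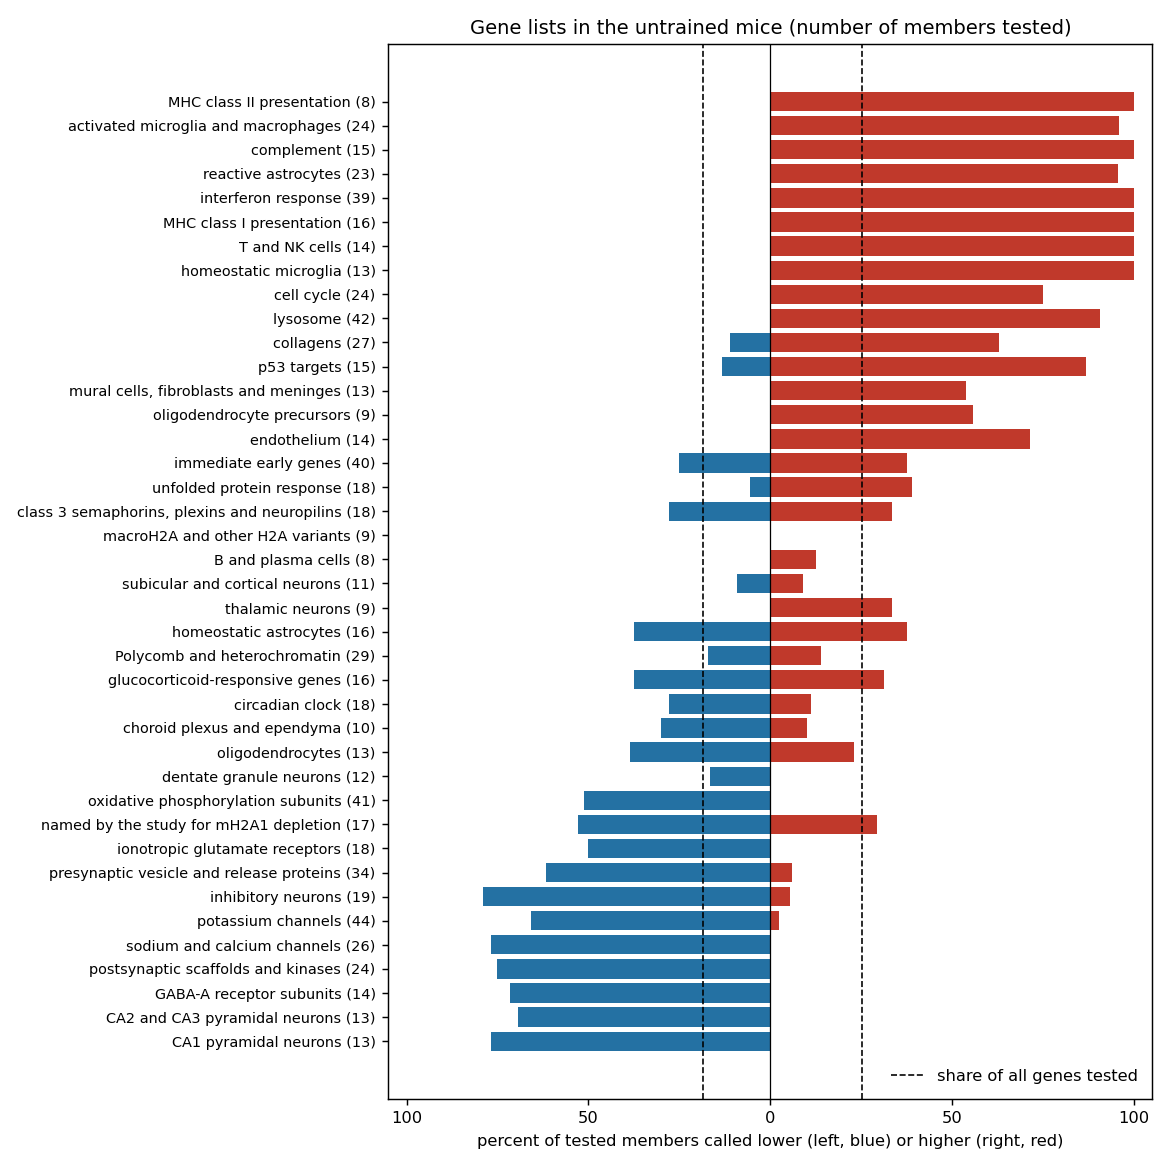
Percent of tested members of each gene list called lower (left, blue) or higher (right, red) in the labelled mH2A1 shRNA libraries, ordered by median log2 fold change, with the number tested in brackets and dashed lines at the share of all genes tested (18.5% lower, 25.2% higher). The interferon, MHC, complement, microglia, T and NK cell, reactive astrocyte and lysosome lists lie beyond the right line, and the CA1, CA2 and CA3, inhibitory neuron, channel, receptor and synaptic lists beyond the left line, while B and plasma cells (12.5% higher) and dentate granule neurons (16.7% lower) do not reach the lines.

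Astrocyte genes separated by state. Of 23 reactive astrocyte genes 22 were higher (median log2 fold change 2.57), the exception being Gap43, whereas the 16 homeostatic astrocyte genes split into 6 higher and 6 lower. Each direction was 37.5% of the homeostatic list, beside 25.2% higher and 18.5% lower of all genes tested. Lcn2, the iron-siderophore carrier lipocalin 2, showed the largest log2 fold change of the genes selected for naming, at 0.536, 0.293 and 0.634 CPM in scramble libraries and 46.4, 32.2 and 62.5 CPM in labelled libraries (log2 fold change 6.59, SE 0.35, edgeR adjusted p = 8.1e-05). Vim, an intermediate filament protein, read 19.0, 17.6 and 21.1 CPM against 121, 137 and 139 CPM. Cd44, a hyaluronan receptor, rose 3.33 (SE 0.18) on the log2 scale. The water channel gene Aqp4 rose 1.06 (SE 0.13), while the glutamine synthetase gene Glul fell by 0.61 and Aldoc, a glycolytic enzyme, fell by 0.55, all 3 being called.

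The remaining genes with the largest higher differences included secreted, metabolic and muscle-type enzymes. Chil1, a chitinase-like secreted protein, read 2.73, 2.83 and 2.39 CPM in scramble libraries and 78.9, 52.0 and 86.9 CPM in labelled libraries (log2 fold change 4.78, SE 0.22). Tgm1, a protein-crosslinking transglutaminase, had the smaller spread, at 0.439, 0.611 and 0.683 CPM against 18.5, 16.0 and 17.5 CPM (4.91, SE 0.17). Lgals3, a galactose-binding lectin, read 0.853, 0.764 and 1.11 CPM against 15.1, 31.7 and 31.4 CPM. Acod1, which makes itaconate in activated macrophages, rose 4.89 (SE 0.54) on the log2 scale. For several of these genes the scramble level rested on few counts. Ccn5, of the CCN family of matricellular proteins, had 11, 3 and 6 counts in scramble libraries and 689, 420 and 750 in labelled libraries. Mylk2, a myosin light chain kinase, had 3, 1 and 6 counts against 233, 260 and 175. Ifi202b had 5, 0 and 3 counts against 160, 228 and 193, and Slfn4 had 7, 6 and 9 against 233, 586 and 301; both belong to multigene families whose reads may be split. The log2 fold changes were 6.31 for Ccn5, 5.82 for Mylk2, 5.92 for Ifi202b, 5.45 for Slfn4, 5.91 for Stra6l and 4.88 for Lilr4b.

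Pyramidal neuron genes were lower. Among the 13 CA1 pyramidal markers 10 were called lower and none higher (18.5% of all genes were lower), and the median log2 fold change was -1.25. Fibcd1, a marker of CA1, read 48.8, 58.1 and 66.3 CPM in scramble libraries and 18.4, 9.04 and 11.7 CPM in labelled libraries (log2 fold change -2.14, SE 0.26, edgeR adjusted p = 0.00061). The summed level of the list was 3630, 4857 and 3501 CPM in scramble libraries and 1884, 1557 and 1390 CPM in labelled libraries, without overlap. Spink8, a protease inhibitor gene of CA1, read 6.10, 8.61 and 6.79 CPM against 2.31, 0.777 and 0.348 CPM. The microglial and reactive astrocyte lists were higher in the same libraries, as given above, and their part in the lower neuronal levels was not tested. The labelled mice differed among themselves, with replicate 1 keeping the highest level of both Fibcd1 and Spink8.

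The CA2 and CA3 list had 9 lower of 13 (median log2 fold change -0.79). Avpr1b, the vasopressin 1b receptor typical of CA2, had 208, 318 and 112 counts in scramble libraries and 7, 1 and 4 counts in labelled libraries (log2 fold change -5.89, SE 0.61, edgeR adjusted p = 0.00035). Amigo2, an adhesion protein of CA2, read 11.5, 13.5 and 10.5 CPM against 3.86, 3.34 and 3.18 CPM. Among the 12 dentate granule markers 2 (16.7%) were lower, Lct and Calb1, a share below the 18.5% of all genes tested. The call of Calb1 was lost without scramble replicate 1 (log2 fold change -0.55) or 3 (-0.61). The number of dentate genes called lower was 5 without labelled replicate 1 and 1 without scramble replicate 1 or 3. Markers of CA2, CA3 and the dentate gyrus had counts in all 6 libraries, and the part of other hippocampal fields in the tissue was not measured.

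Inhibitory neuron genes were lower in 15 of 19 cases and higher in 1 (median log2 fold change -0.54). Kcnc2, a fast potassium channel subunit of interneurons, read 221, 241 and 265 CPM in scramble libraries and 119, 110 and 118 CPM in labelled libraries (log2 fold change -1.06, SE 0.08, edgeR adjusted p = 0.00014). Gad2, a GABA-synthesising enzyme, read 78.5, 87.1 and 99.7 CPM against 55.5, 59.5 and 57.3 CPM. The higher gene was Npy, the neuropeptide Y gene, at 25.7, 37.7 and 34.5 CPM against 47.9, 52.3 and 70.2 CPM. Npy was thus opposite in direction to Sst, a neuropeptide gene of the same list that fell by 1.33 on the log2 scale.

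**Figure D4:**
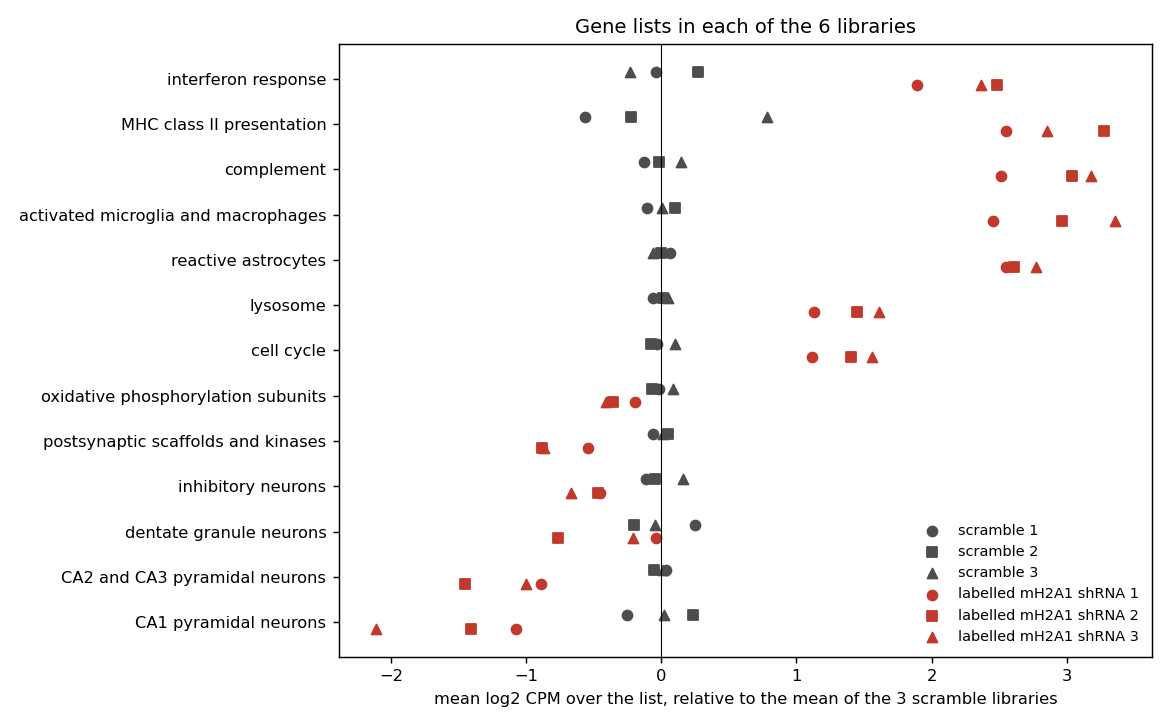
Mean log2 CPM over the tested members of 13 gene lists (rows) in each library, relative to the mean of the 3 scramble libraries (horizontal axis), with grey symbols for scramble and red symbols for labelled mH2A1 shRNA mice. Labelled replicate 1 (circle) lies nearest to the scramble mice in the immune lists, and among the 13 lists the dentate granule list is the row in which the groups overlap.

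In the ion channel and synaptic lists most calls were lower. Of 44 potassium channel genes 29 were lower and 1 higher (median log2 fold change -0.60), of 26 sodium and calcium channel genes 20 were lower (median -0.63), of 14 GABA-A receptor subunits 10 (median -0.73) and of 18 ionotropic glutamate receptor genes 9 (median -0.43). Kcnab1, a potassium channel auxiliary subunit, read 573, 744 and 528 CPM in scramble libraries and 271, 275 and 250 CPM in labelled libraries. Gabra5, the extrasynaptic GABA-A subunit of hippocampal pyramidal cells, fell by 1.06 (SE 0.12), and Gria2, the AMPA receptor subunit that sets calcium permeability, fell by 1.05 (SE 0.12) on the log2 scale. The higher potassium channel was Kcna5, at 0.975, 0.878 and 1.08 CPM against 2.81, 3.37 and 2.46 CPM.

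Postsynaptic scaffolds and kinases were lower for 18 of 24 genes (median log2 fold change -0.72) and presynaptic genes for 21 of 34 (median -0.47), with 2 presynaptic genes higher. Homer2, a scaffold that links glutamate receptors, read 191, 265 and 200 CPM in scramble libraries and 60.7, 71.3 and 42.3 CPM in labelled libraries. Dlg4, which encodes the scaffold PSD-95, read 485, 552 and 484 CPM against 300, 229 and 249 CPM. Syt1, the calcium sensor of vesicle release, fell by 0.80 (SE 0.09) on the log2 scale. The higher presynaptic members, Vamp8 and Snap23, are vesicle fusion proteins that also serve secretion outside neurons. Vamp8 read 2.95, 3.18 and 3.40 CPM against 10.5, 12.7 and 14.6 CPM, while the call of Snap23 (log2 fold change 0.38, edgeR adjusted p = 0.0466) was lost without each of 5 of the 6 libraries, at log2 fold changes of 0.23 to 0.40.

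Scaling moved these counts. Without scaling factors the lower genes numbered 9 for CA1, 5 for CA2 and CA3, 8 for inhibitory neurons, 20 for potassium channels, 14 for sodium and calcium channels, 8 for GABA-A subunits, 6 for ionotropic glutamate receptors, 15 for postsynaptic and 15 for presynaptic genes, with 5 potassium channels and 1 GABA-A subunit then called higher.

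Oxidative phosphorylation subunits were lower for 21 of 41 genes (median log2 fold change -0.30). This result depended on scaling, since 3 were lower and 1 higher, with a median of -0.05, when library totals were used without factors. Ndufb3, a complex I subunit, fell by 0.70 (SE 0.08) on the log2 scale after TMM scaling.

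The largest lower differences besides Avpr1b were found in receptors, enzymes and signalling genes. Alox12b, a lipoxygenase, read 5.23, 6.30 and 4.92 CPM in scramble libraries and 0.689, 0.624 and 0.184 CPM in labelled libraries (log2 fold change -3.45, SE 0.41). Ankrd63 read 6.84, 7.02 and 10.1 CPM against 1.40, 0.930 and 0.266 CPM. Rasd1, a Ras-like protein induced by glucocorticoids, read 16.9, 25.4 and 21.7 CPM against 5.59, 2.28 and 2.02 CPM, although it shares part of its span with Med9. Cntnap5c, a neurexin-family adhesion gene, read 472, 773 and 350 CPM against 127, 79.4 and 109 CPM. These genes were chosen among those whose groups did not overlap, a condition met by 59.9% of all genes tested. Other lower genes in this group were Tll2 (-2.59), Grem1 (-2.53), Tbata (-2.43) and Egfl6 (-2.40). Ebf2, a transcription factor, had a log2 fold change of -2.80 (SE 0.73), with 3.59, 0.827 and 7.34 CPM in scramble libraries, and lost its call without labelled replicate 3 (-2.61).

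Activity-regulated genes did not move in 1 direction. Of 40 immediate early genes 15 were higher, 10 lower and 15 not called (median log2 fold change 0.37). These shares, 37.5% higher and 25% lower, lie beside 25.2% and 18.5% of all genes tested. Atf3, a stress-induced transcription factor, read 0.853, 1.15 and 0.957 CPM in scramble libraries and 17.9, 21.6 and 20.3 CPM in labelled libraries (log2 fold change 4.35, SE 0.14, edgeR adjusted p = 5.5e-05). Fos, a subunit of the AP-1 factor, was higher too, at 3.24, 4.85 and 7.47 CPM against 14.3, 18.6 and 15.5 CPM (1.64, SE 0.28). Maff, Trib1 and Inhba, which encode a small Maf factor, a pseudokinase and an activin subunit, rose 2.23, 1.49 and 1.73 on the log2 scale.

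Arc, the synaptic protein induced by neuronal activity, was lower instead. It read 50, 80.6 and 103 CPM in scramble libraries and 23.5, 21.7 and 15.7 CPM in labelled libraries (log2 fold change -1.93, SE 0.27, edgeR adjusted p = 0.0012). Egr1, an activity-induced transcription factor, read 75.3, 114 and 112 CPM against 31.5, 37.6 and 26.7 CPM (-1.64, SE 0.19). The scramble mice varied more than the labelled mice for Arc, whose lowest scramble value was still 50 CPM. Egr2 (log2 fold change 0.43, SE 0.34) and Fosb (0.27, SE 0.25) were not called and overlapped between the groups. Of the 17 genes that the study names for mH2A1 depletion, 5 were higher and 9 lower, a tally that pools unlike statements. Vamp8, Snap23, Itgav and Adam8, named as upregulated, were higher. Among those named as downregulated, Reln, Gabrg3, Gabrd, Kcnab1, Kcnc2, Kcnd2 and Shank2 were lower and Gabrg1 was not called. Arc, Fos, Fosb, Egr1 and Egr2 are named for a blocked response to training, which this comparison does not measure. The study's supplement also lists Egr1 as downregulated and Fos as upregulated by mH2A1 depletion in untrained mice, the directions seen here. The study picked these 17 genes from libraries of this series, so they are not independent evidence of direction.

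Stress and growth programmes were mostly higher. Of 24 cell cycle genes 18 (75%) were higher and none lower (median log2 fold change 1.49), all 24 being tested. Of all genes tested, 25.2% were higher and 18.5% lower. Mki67, a marker of dividing cells, read 2.34, 2.39 and 2.46 CPM in scramble libraries and 8.51, 14.3 and 15.1 CPM in labelled libraries. Top2a, a topoisomerase of dividing cells, rose 2.48 (SE 0.23) on the log2 scale. Among 15 p53 targets 13 were higher and 2 lower (median 1.01). Cdkn1a, the cell cycle inhibitor p21, read 5.57, 7.36 and 5.6 CPM against 21.9, 33.7 and 33.5 CPM, and the death receptor gene Tnfrsf10b rose 2.23 (SE 0.18). Cdkn1a was therefore higher in the same libraries as the division markers.

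Of 18 unfolded protein response genes 7 were higher and 1 lower (median log2 fold change 0.23), with the pseudokinase gene Trib3 at 2.52 (SE 0.16) and the factor Ddit3 at 1.08 (SE 0.08). The higher share was 38.9%, beside 25.2% of all genes tested, and 10 members were not called. Collagens were higher for 17 of 27 genes and lower for 3 (median 1.27). Col16a1, a fibril-associated collagen, read 7.02, 8.53 and 7.54 CPM in scramble libraries and 40.8, 35.1 and 34.6 CPM in labelled libraries. Endothelial genes were higher for 10 of 14 (median 0.43), led by the leukocyte adhesion genes Icam1 (2.87, SE 0.17) and Vcam1 (1.81, SE 0.13). The mural cell and fibroblast list had 7 higher of 13, and 3 without scramble replicate 3.

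Oligodendrocyte precursor genes were higher for 5 of 9 (median log2 fold change 0.65). Lhfpl3, a precursor marker, read 202, 215 and 213 CPM in scramble libraries and 368, 446 and 549 CPM in labelled libraries. Mature oligodendrocyte genes split into 3 higher and 5 lower of 13 (23.1% and 38.5%, beside 25.2% and 18.5% of all genes tested). Opalin, a myelin glycoprotein, read 29.3, 27.0 and 25.8 CPM against 14.4, 18.0 and 14.8 CPM, while the lineage factor Sox10 rose 0.65 (SE 0.08). The 5 lower oligodendrocyte genes became 3 without scramble replicate 1 or 3 or labelled replicate 3.

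The remaining lists had few calls or calls in both directions. Their counts are to be read beside the 25.2% higher and 18.5% lower of all genes tested. Polycomb and heterochromatin genes had 4 higher and 5 lower of 29 tested (median log2 fold change -0.01). Circadian clock genes had 2 higher and 5 lower of 18, glucocorticoid-responsive genes 5 higher and 6 lower of 16, and semaphorins, plexins and neuropilins 6 higher and 5 lower of 18. Thalamic markers had 3 higher of 9, cortical and subicular markers 1 higher and 1 lower of 11, and choroid plexus and ependyma markers 1 higher and 3 lower of 10.

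The called genes also differed in gene length and in mH2A1 occupancy, neither of which entered the test. The median gene span was 21.7 kb for higher genes, 35.6 kb for lower genes and 24.9 kb for all genes tested. Of 964 genes of at least 200 kb, 125 were higher and 403 lower (median log2 fold change -0.25), while of 6780 genes under 20 kb, 1878 were higher and 986 lower (median 0.05). Introns were included in the counts. In the domains that the authors called from chromatin immunoprecipitation of mH2A1 in untrained mice of another experiment, 18.8% of all genes tested had their start within a domain in at least 2 of 3 libraries. The share was 32.9% for genes called higher and 11.1% for genes called lower. Single lists did not all follow their direction. The share was 26.3% in the interferon list, 62.5% in MHC class I presentation and 47.8% in reactive astrocytes. In the CA1 pyramidal list, where most calls were lower, it was 46.2% (6 of 13).

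The shares were also taken in 3 equal classes of mean level over the 6 libraries. In the lowest class 41.3% of higher genes, 26.9% of lower genes and 29.2% of genes not called had an occupied start. In the middle class these shares were 28.8%, 9.91% and 8.5%, and in the highest class 18.5%, 8.38% and 6.98%. The share among higher genes thus exceeded that among genes not called in every class, as a description across genes that are not independent replicates. Lower genes also exceeded genes not called in the middle and highest classes. The classes use the mean of both groups and do not hold the scramble level fixed. The study reports more mH2A binding at genes of low expression, and the part of the scramble level in these shares was not tested. When all 3 libraries were required to hold the domain, the shares were 18.2% of higher, 4.14% of lower and 9.47% of all genes tested. With stricter FDR and log2 ratio thresholds on the domains they were 5.05%, 0.719% and 2.48%.

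Trained mice of the same experiment, killed 1 h after contextual fear conditioning, carried the same 2 viruses in 6 other libraries. There, 22.8% of 15703 genes were called higher and 18.4% lower. Of the 3938 genes higher in untrained mice and tested in trained mice, 3255 were called higher and none lower after training, with a median log2 fold change of 0.96. Of the 2914 lower genes 2234 were called lower and none higher (median -0.48). Lcn2 had a log2 fold change of 6.59 in untrained and 4.47 in trained mice, Arc -1.93 and -2.64, Avpr1b -5.89 and -5.96, and Macroh2a1 0.13 and 0.16. The interaction between virus and training called 0 of 15997 genes at an adjusted p under 0.05 with edgeR and 0 with DESeq2, with 333 and 380 genes at an unadjusted p under 0.05. A difference of the virus effect between untrained and trained mice was thus not detected for any gene, which does not show that the effects are equal.

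The separate depletion experiment compared shH2afy with scramble in 6 further mice, sequenced at another centre at a lower depth, and counting over the whole span is stated only for the training experiment. Macroh2a1 behaved differently between the experiments, at a log2 fold change of -0.39 (SE 0.10, edgeR adjusted p = 0.025) in the depletion experiment and 0.13 in the untrained mice here. The interaction of virus and experiment for this gene was 0.44 (edgeR adjusted p = 0.0532), and its adjusted p was 0.0335 with RLE size factors and 5.1e-06 with DESeq2. Of the 1577 genes that were higher in the depletion experiment at the stricter thresholds (11.1% of those tested) and tested here, 1534 (97.3%) were called higher here and none lower, with a median log2 fold change of 1.75 here and 2.55 there. Of the 1942 genes past the same thresholds here, 64.2% were among them. Of 185 lower genes 130 were called lower here and none higher (median -0.72 here and -1.18 there). Across 14182 genes the log2 fold changes of the 2 experiments correlated at r = 0.87, as a description in which genes are not independent replicates.

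The interaction with experiment called 484 of 16059 genes (3.01%) as more negative and 25 (0.156%) as more positive in the untrained mice here, and 381 of the 484 were positive in both experiments and smaller here. The count of more negative genes ranged from 48 without scramble replicate 2 to 687 with DESeq2. Interferon genes were prominent in it, with an interaction at an adjusted p under 0.05 for 34 of 39. Ifit1, an RNA-binding antiviral protein, rose 1.94 (SE 0.29) on the log2 scale here, with 8.41, 12.5 and 5.79 CPM against 25.5, 38.6 and 38.0 CPM, and 5.85 in the depletion experiment (interaction -3.99, edgeR adjusted p = 0.0023). Oasl2 rose 2.25 here and 6.73 there (interaction -4.56), Ifi27l2a 2.66 and 7.07 (-4.52), and Slfn9 2.19 and 5.54 (-3.44). In the depletion experiment Oasl2 read 2.74, 1.87 and 2.47 CPM in scramble and 278, 272 and 172 CPM in shH2afy libraries. Ifi27l2a read 0.304, 0.201 and 0.562 against 40.7, 49.9 and 40.8 CPM there. Slfn9 read 0.380, 0.602 and 0.337 against 22.4, 20.1 and 20.3 CPM. In the scramble libraries here these 3 genes read 17.3, 24.5 and 13.8, 1.90, 2.39 and 1.47, and 2.34, 2.42 and 2.19 CPM. Centre and depth differ between the experiments, so levels are not comparable across them. The part of the scramble levels in the interaction was not tested.

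Tmem267 and Igf2bp3 showed the opposite relation. Tmem267, a predicted membrane protein, read 8.36, 10.8 and 11.0 CPM in scramble libraries and 53.9, 46.9 and 47.5 CPM in labelled libraries (log2 fold change 2.30, SE 0.12), while its log2 fold change in the depletion experiment was -0.07 (adjusted p = 0.802 in edgeR). The RNA-binding protein gene Igf2bp3 read 0.755, 1.17 and 0.671 CPM against 6.87, 8.50 and 12.0 CPM here and had a log2 fold change of -0.21 there. In trained mice the log2 fold changes of these 2 genes were 2.56 and 3.07. The experiments differ in sequencing centre, in depth and in the change of Macroh2a1 itself, and ribosomal depletion and counting over the whole span are stated only for the training experiment, so that these cannot be told apart.

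**Figure D5:**
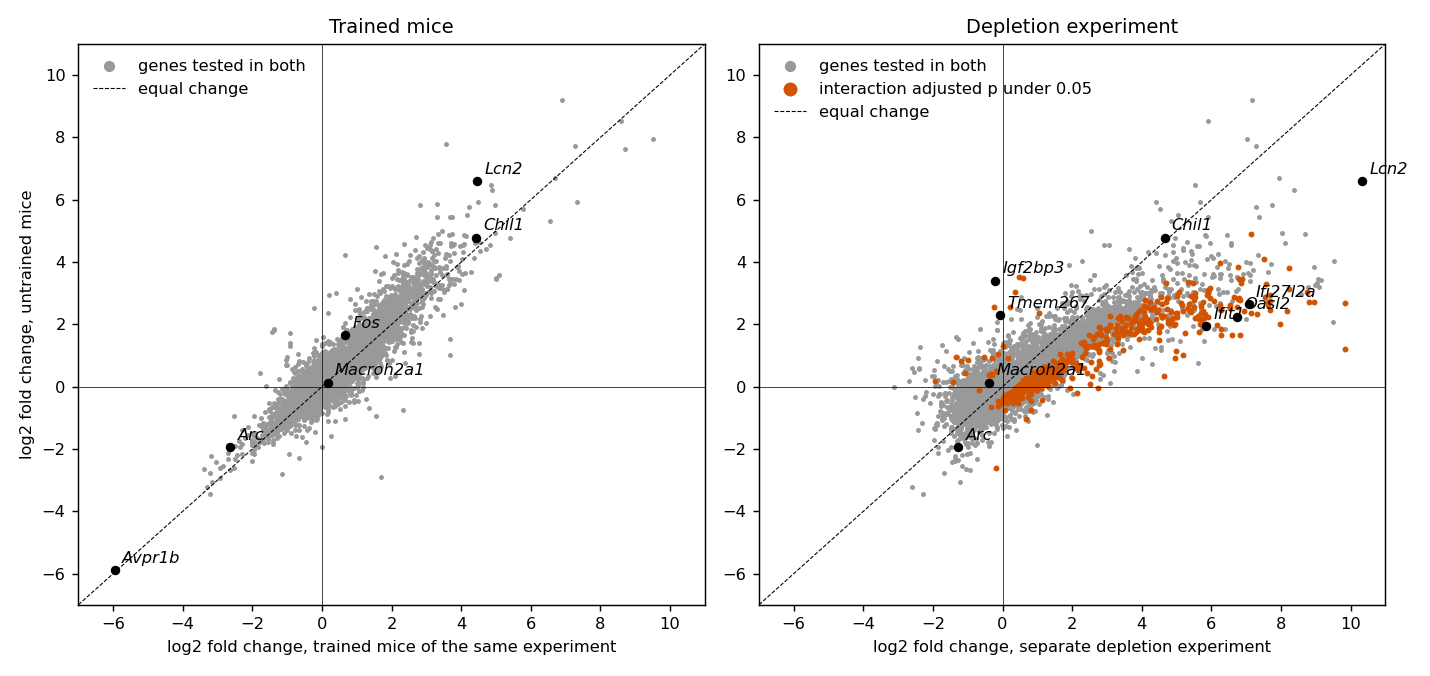
Log2 fold change in the untrained mice (vertical axis) against that in the trained mice (left) and in the separate depletion experiment (right), each point a gene tested in both, orange for an interaction at an adjusted p under 0.05, with a dashed line of equal change. No gene is orange in the comparison with trained mice, whereas in the depletion experiment interferon genes such as Ifit1 and Oasl2 lie below the line and Tmem267 and Igf2bp3 above it.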

How the data were processed

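RNA of area CA1 was measured in 6 untrained mice (3 scramble, 3 labelled mH2A1 shRNA). The authors aligned reads to mm10 with STAR and counted them over the whole transcript span with featureCounts, and the deposited values are raw counts. The strand setting is not given in the sources used here, so overlapping genes, 1123 of the 6887 called genes with coordinates, are uncertain. The table holds 0 mitochondrial genes. The depletion experiment's deposited values are raw counts too, at 9954415 to 16988596 per library. Of the 20801 genes, 20685 matched it by Ensembl identifier or, failing that, by symbol or synonym. The authors' epic2 domain files give for each domain an FDR (a q-value) and a log2 ratio of ChIP over input. The 3 untrained libraries held 83013, 95952 and 63198 domains.

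Genes passed edgeR's filterByExpr (minimum count 10, minimum total 15). The main test was edgeR 4.0.16 with TMM and the quasi-likelihood test in R 4.3.3, on the compared libraries only, with Benjamini-Hochberg adjustment over all genes tested. DESeq2 1.42.0 was an alternative. Interactions used 12 libraries. Fold changes are on the log2 scale. The 3 virus comparisons share no library, and the interactions reuse their libraries. The scripts were tested on simulated data.

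The 42 gene lists and all rules were chosen with earlier results of these data known. Genes named are the histone variants, the 12 higher and 12 lower called genes with the largest differences, without overlap, with a mean of at least 1 CPM and no predicted genes, up to 4 members of each list by p, genes the study names, and up to 6 by p in an interaction. Npy, Sst, Lpl, Gap43 and the genes Isg15, Gbp3, Oas1a and Stat2, whose promoters are printed, fall outside this rule and were chosen after their values were seen. Gene spans come from RefSeq (GRCm38.p6). Intervals for single counts were not computed, since replicate mice give the error. Same-numbered mice did not deviate together (correlations 0.04, 0.09 and -0.23). Some results that fall under these rules are not reported here.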

Additional observations from a re-analysis of the deposited data

Results flagged for a closer look

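The 8 results given here were picked out because the virus effect differed between the untrained mice of the training experiment and the depletion experiment, by a test of the difference itself (the interaction of virus and experiment in edgeR). They are the 484 genes more negative and the 25 genes more positive here, and 6 single genes. The interaction on the log2 scale was -4.56 for Oasl2, -4.52 for Ifi27l2a, -3.99 for Ifit1 and -3.44 for Slfn9, and 3.54 for Igf2bp3 and 2.29 for Tmem267. The median interaction over all genes tested was -0.13 with TMM scaling, far smaller than any of the 6. With groups of 3 mice no single library was tested as an outlier, and no gene had an interaction with training past the threshold.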

How the results depend on the processing

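The counts of 3984 higher and 2921 lower genes stayed within 1.5 times under RLE size factors, no low-count filter, DESeq2 (4043 and 3239) and a shared dispersion. Leaving out a library gave 3434 to 4066 higher and 2404 to 3228 lower genes. With the replicate number as a block (the replicate block) they were 3696 and 2741, and same-numbered mice were not paired in the data. Thresholds of 0.01 and 2 gave 1942 and 221. Library totals without scaling factors, chosen after seeing the data, gave 6455 and 1060, and moved Macroh2a1 to 0.38. No named gene reversed a call. Of 2652 values of named genes under the alternatives, 113 fell below the threshold and 22 rose above it. The medians of 9 lists changed sign under some setting, all of them between -0.24 and 0.12 at first. Without scaling factors the dentate granule median was 0.01 and the oligodendrocyte median 0.03. The interaction with training called 0 genes in every setting. The interaction with experiment moved with scaling, with the replicate block and with single libraries, and its median over all genes ran from -0.14 to 0.16. Its counts, more negative and more positive, were 484 and 25 in the main test, 222 and 38 with RLE, 206 and 13 with the replicate block, and 48 to 384 and 9 to 124 without a library, and 687 and 283 with DESeq2, and the cause was not tested. For Macroh2a1 that interaction was 0.56 with RLE and 0.56 with DESeq2 and 0.44 to 0.74 without a library. Leaving out mitochondrial genes was not run, because the table holds none. Libraries held 82104506 to 89816149 counts with 3 mice per group, and which of these limits the comparison was not tested.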
